A study of Mus musculus with 16 samples.

Results

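Interleukin-2, its receptor, the kinase and transcription factors downstream of it and the inhibitors that act back on them were followed as a set of 10 genes, Il2, Il2ra, Il2rb, Il2rg, Jak3, Stat5a, Stat5b, Cish, Socs1 and Socs2. They were chosen by name, and 8 of the 10 could be measured among 16427 genes tested. No probe with the single symbol Il2rg was listed, and the 1 probe for Jak3 also carried another gene's symbol, so both were not analysed here. The samples were CD4+ T cells of B6 mice, sorted from spleen and lymph nodes as CD62L high and CD25 negative, and stimulated for 24 h with antibody-coated latex beads. The knockout (KO) cells lacked Dec1, the product of Bhlhe40 and a transcriptional repressor of the helix-loop-helix class, and the wild-type (WT) cells carried it. In each genotype the beads bore anti-CD3 together with anti-CD28, or anti-CD3 alone, giving the groups KO_CD3CD28, KO_CD3, WT_CD3CD28 and WT_CD3 with 4 arrays each. The sources used here give neither the knockout allele nor the animals' age. Whether the replicates, numbered 1 to 4, are separate animals is not stated, and p-values then reflect only the spread between these samples, which may be technical.

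Interleukin-2 is the growth factor that T cells secrete once the T cell receptor and the costimulatory receptor CD28 are engaged together. It binds a receptor of an alpha chain (CD25, encoded by Il2ra), a beta chain (Il2rb) and the common gamma chain (Il2rg). The receptor's kinases, Jak3 among them, phosphorylate STAT5, which turns on Il2ra and also Cish, Socs1 and Socs2, whose products damp cytokine receptor signalling. The sort removed cells that already displayed CD25, in all 4 groups alike.

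Values are log2 signals, in which a difference of 1 is a doubling. Array medians were 6.64 to 6.97, and the number of arrays limits the precision. To mark signals that cannot be told from background, 62 genes of other tissues were measured, and their 95th percentile lay at 7.43 to 7.8 on the 16 arrays. A gene at or under that level on all arrays of a group is called near background there, and a difference from such a group is a lower bound. Bhlhe40 was at 5.88 ± 0.14 in KO_CD3CD28 and 5.53 ± 0.32 in KO_CD3, both near background, and at 9.51 ± 0.71 in WT_CD3CD28 and 7.56 ± 0.42 in WT_CD3 (SD, n = 4 each). T cell identity markers averaged 10.97 to 11.07 in KO_CD3CD28, 11.29 to 11.56 in KO_CD3, 10.89 to 11.32 in WT_CD3CD28 and 11.48 to 11.74 in WT_CD3. Of 11 B cell markers 10 or 11 were near background in every group, of 18 myeloid and dendritic cell markers 13 to 17, of 12 CD8 and NK cell markers 7 to 10, and of 7 erythroid and platelet markers all 7. With anti-CD28, 5 of the 7 tested CD8 and NK cell markers rose and 2 fell in each genotype (medians 0.76 in knockout and 0.73 in wild type), and of 14 tested myeloid and dendritic cell markers 9 fell in knockout and 7 in wild type. Of 9 tested B cell markers 5 and 4 fell, of 5 erythroid and platelet markers 2 and 0, and of 10 T cell identity markers 5 and 6. Of all tested genes 20.4% rose and 17.6% fell in knockout, and 16% rose and 13.0% fell in wild type. For a marker near background a fall does not show fewer such cells. The part of these marker shifts in the results was not tested. Xist was high in replicates 2 and 4 of the knockout and replicate 1 of the wild type under both stimuli, and low in the others. The replicates of a genotype were thus not all alike. In like-numbered pairs 1, 2 and 4 the genotypes also differed in Xist class, so genotype differences in those pairs mix both. With that class as a term in the fit the members' calls given here did not change.

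Il2 and the 2 measured receptor chains were higher with anti-CD28 in both genotypes, and so were Cish and Socs2, while Stat5b was lower. In knockout cells 5 of the 8 measured genes rose and 1 fell, where 20.4% of all tested genes rose and 17.6% fell (38.0% were called in all). The same 6 genes kept the stimuli apart on all arrays, as did 34.9% of all tested genes. In wild-type cells the count was again 5 higher and 1 lower, where 16% and 13.0% of all tested genes were called in these directions (29.0% in all), and again the 6 called genes did not overlap, against 30.4% of all tested genes. The median difference over the 8 genes was 1.36 in knockout and 0.75 in wild type, against -0.063 and -0.03 over all tested genes. A call is an adjusted p under 0.05 in limma, a linear model fitted over all tested genes with Benjamini-Hochberg adjustment. Between the genotypes limma called 0 of the 8 with anti-CD3 plus anti-CD28, where 0.00609% of all tested genes were called, and 0 of the 8 with anti-CD3 alone, where 1.03% were. At an unadjusted p under 0.05 these counts were 0 and 3 (Il2ra, Il2rb and Socs1), where 3.32% and 24.3% of all tested genes were under it. Il2ra and Il2rb were lower in knockout, while Socs1, near background in both groups, was higher. With the replicate number as a block, 1 of the 8 was called under anti-CD3 alone, Il2rb, where 11.9% of all tested genes were. As these are bulk cultures, fewer cells of a type and less RNA per cell cannot be told apart.

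**Figure D1:**
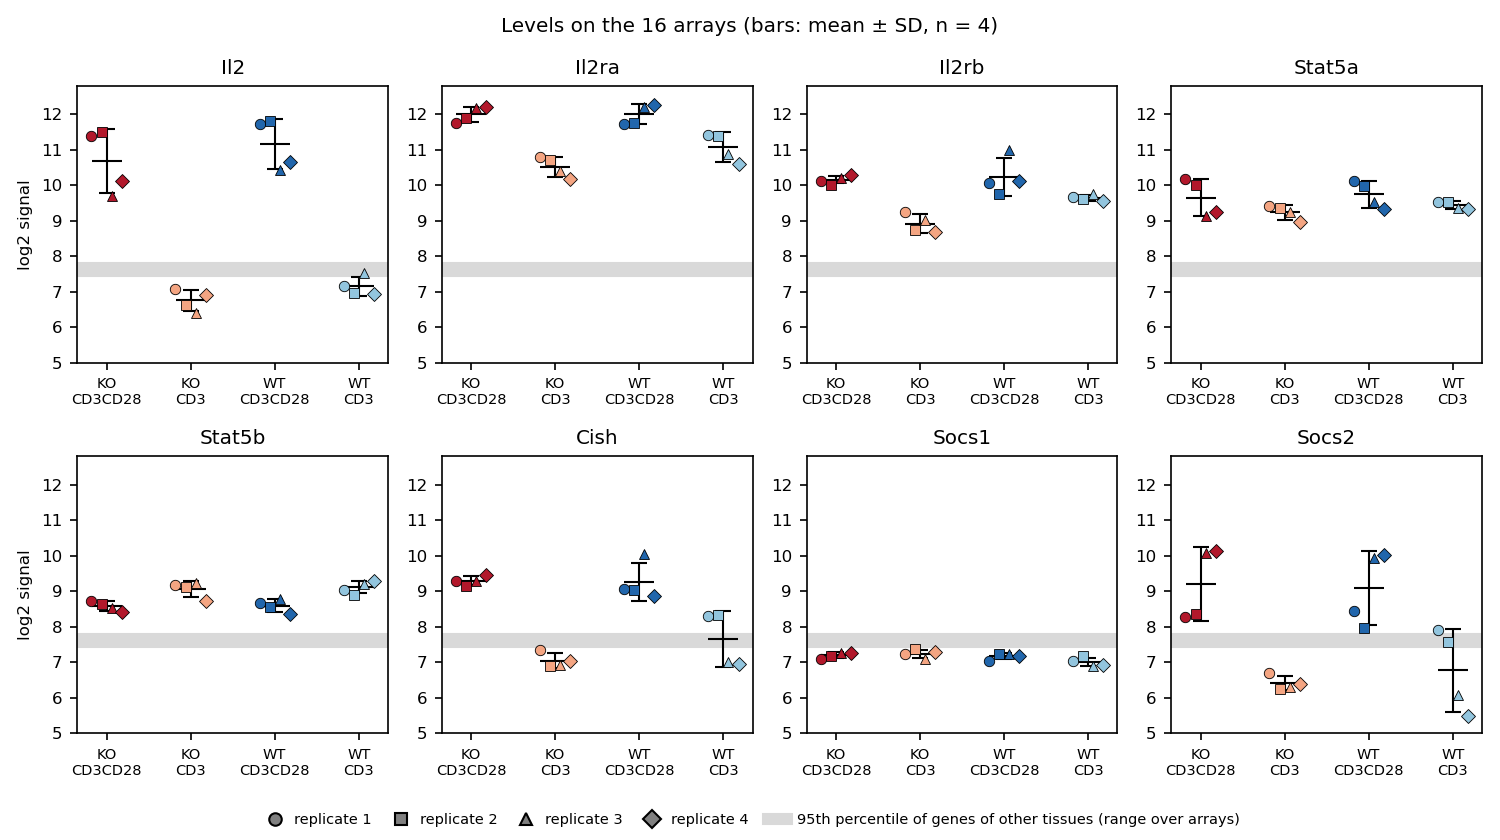
Log2 signal (vertical axis) of the 8 measured genes of the IL-2 pathway in the 4 groups, with a point per array shaped by replicate number and bars for mean ± SD (n = 4). The grey band spans the 95th percentile of genes of other tissues over the arrays. Il2, Cish and Socs2 lie within or under the band on all KO_CD3 arrays and above it on all CD3CD28 arrays, and Socs1 lies under it throughout.

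The ligand gene Il2 had the largest CD28 difference of the 8. It lies at chr3:37120713-37125954 (GRCm38.p6). The 250 bases before its annotated start (chr3:37125955-37126204, minus strand, RefSeq) are shown because they hold the CD28 response element, the site through which CD28 signals are known to act on the gene. The capitals mark AAATTCC, the part of that element that was searched for:
Il2 upstream: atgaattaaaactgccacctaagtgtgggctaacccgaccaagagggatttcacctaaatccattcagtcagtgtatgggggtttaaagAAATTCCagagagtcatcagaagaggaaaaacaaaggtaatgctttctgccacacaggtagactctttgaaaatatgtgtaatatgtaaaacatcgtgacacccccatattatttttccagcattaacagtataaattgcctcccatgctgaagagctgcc

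These letters, sought on both strands, begin 161 bases before the start site. They occur in 3.91% of 32851 windows around RefSeq starts, each of 250 bases before and 50 after, and in no other window of the set. The stretch also holds GGAAAA, the core that NFAT factors bind, at 137 and 48 bases before the start, a motif in 23.4% of all windows and also in those of Jak3 and Cish, where it overlaps a STAT motif given below. TGANTCA, the AP-1 motif, was in 7.81% of all windows and in none of the set. CACGTG, the E-box that Dec1 is known to bind, was in 7.15% of all windows and likewise in none of the set. The promoter table held windows for 8 of the 10 genes, all but Il2rb and Socs2. A match to these letters describes the sequence and does not show binding.

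Il2 signals in KO_CD3CD28 were 11.38, 11.5, 9.7 and 10.13 (replicates 1 to 4), against 7.08, 6.62, 6.39 and 6.91 in KO_CD3. In WT_CD3CD28 they were 11.73, 11.82, 10.44 and 10.67, against 7.17, 6.95, 7.52 and 6.94 in WT_CD3. Every array with anti-CD28 lay far above every array without it, while KO_CD3 was near background on all 4 arrays and WT_CD3 on 3 of 4. Il2 rose by 3.93 in knockout (SE 0.37, limma adjusted p = 3.01e-07) and by 4.02 in wild type (adjusted p = 4.86e-07). The knockout was 0.49 below the wild type with anti-CD28 (-0.49, 95% interval -1.26 to 0.29, adjusted p = 0.999), and the groups overlapped. In like-numbered pairs the Il2 difference between knockout and wild type with anti-CD28 was -0.35, -0.32, -0.74 and -0.54, below 0 in all 4, and with the replicate number as a block the adjusted p was 0.799. As nearly all anti-CD3 arrays were near background, both CD28 responses are lower bounds and the difference between them is not given.

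Il2 also split by replicate number. With anti-CD28, replicates 1 and 2 of both genotypes were higher than replicates 3 and 4, and the CD28 difference in matched replicates was 4.3, 4.88, 3.31 and 3.22 in knockout and 4.56, 4.87, 2.92 and 3.73 in wild type. The labels name no batch that parts these replicates, and the difference between the pairs of replicates was not tested. Fits to replicates 1 and 2 or 3 and 4 alone, given below, were chosen with earlier results of these data known. Their calls are therefore no independent support.

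**Figure D2:**
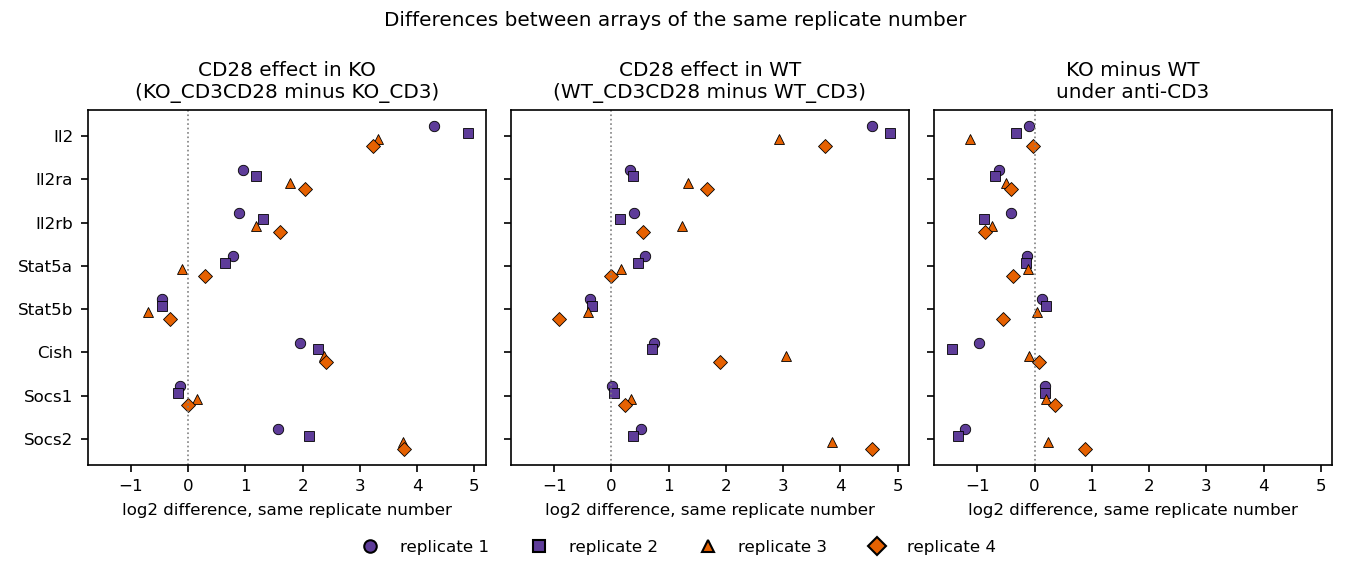
CD28 difference (CD3CD28 minus CD3, log2, horizontal axis) in each like-numbered pair of arrays, by gene, in knockout (left) and wild type (middle), and the genotype difference under anti-CD3 (right), with a point shape for each replicate number. In both CD28 panels Il2 has its highest points in replicates 1 and 2, while Il2ra and Socs2 have theirs in replicates 3 and 4. In the right panel all 4 points of Il2, Il2ra, Il2rb and Stat5a lie under 0, and all 4 of Socs1 lie above 0.

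Il2ra, the alpha chain that gives the receptor its high affinity, lies at chr2:11642792-11693194. Its signals in KO_CD3CD28 were 11.75, 11.9, 12.17 and 12.2, against 10.8, 10.71, 10.39 and 10.17 in KO_CD3. In WT_CD3CD28 they were 11.74, 11.77, 12.22 and 12.26, against 11.42, 11.4, 10.89 and 10.59 in WT_CD3. The stimuli did not overlap in either genotype, and with anti-CD28 the genotypes' means differed by 0.01, less than their SDs of 0.22 (KO) and 0.28 (WT; n = 4). Il2ra rose by 1.49 in knockout, 2.81-fold (SE 0.19, limma adjusted p = 1.03e-05), and by 0.92 in wild type, 1.89-fold (adjusted p = 0.0014).

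Under anti-CD3 alone Il2ra was lower in KO_CD3 than in WT_CD3 in each like-numbered pair, by -0.62, -0.69, -0.5 and -0.42. The groups overlapped, and the mean difference of -0.56 did not pass over all genes (limma unadjusted p = 0.00974, adjusted p = 0.115). It passed with replicates 1 and 2 alone (-0.66, limma adjusted p = 0.00443), where 8.45% of all tested genes were called. The CD28 differences of Il2ra were larger in replicates 3 and 4, at 1.78 and 2.04 in knockout and 1.33 and 1.67 in wild type, than in replicates 1 and 2, at 0.95 and 1.19 in knockout and 0.32 and 0.37 in wild type.

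Il2rb encodes the beta chain, which carries the docking sites for STAT5 and is shared with the interleukin-15 receptor. It lies at chr15:78479256-78511621. Its signals in KO_CD3CD28 were 10.12, 10.02, 10.2 and 10.29, against 9.24, 8.73, 9.01 and 8.69 in KO_CD3. In WT_CD3CD28 they were 10.07, 9.76, 10.99 and 10.12, against 9.66, 9.61, 9.76 and 9.57 in WT_CD3. Anti-CD28 arrays lay above anti-CD3 arrays in both genotypes, by a wide gap in knockout and with the lowest and highest values touching in wild type.

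Il2rb rose by 1.24 with anti-CD28 in knockout, 2.36-fold (SE 0.19, limma adjusted p = 5.99e-05), and by 0.58 in wild type, 1.5-fold (adjusted p = 0.0268). The wild-type call rested on few arrays. Without WT_CD3CD28 replicate 3 the difference was 0.33 (adjusted p = 0.0654), and it also missed the threshold without WT_CD3 replicate 1, 2 or 4 (adjusted p = 0.0511, 0.0591 and 0.068). With replicates 1 and 2 alone it was 0.27 (adjusted p = 0.209), and after quantile normalization 0.47 (adjusted p = 0.0865).

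Of the 8 genes, Il2rb alone had genotypes that did not overlap under anti-CD3, all 4 KO_CD3 arrays lying under all 4 WT_CD3 arrays. Such a gap was present for 14.7% of all tested genes in that comparison. KO_CD3 averaged 8.92 ± 0.26 and WT_CD3 9.65 ± 0.08 (SD, n = 4). The difference of -0.73 (SE 0.19, 95% interval -1.13 to -0.33) did not pass in limma (adjusted p = 0.0665), where 1.03% of all tested genes did. With the replicate number as a block it passed (adjusted p = 0.0146), as did 11.9% of all tested genes in that fit, and it passed without WT_CD3CD28 replicate 3 (adjusted p = 0.0204). With anti-CD28 the difference between genotypes was -0.08 and the groups overlapped. The knockout's CD28 response exceeded the wild type's by 0.65 (SE 0.27), which was not called (limma unadjusted p = 0.0259, adjusted p = 0.905).

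**Figure D3:**
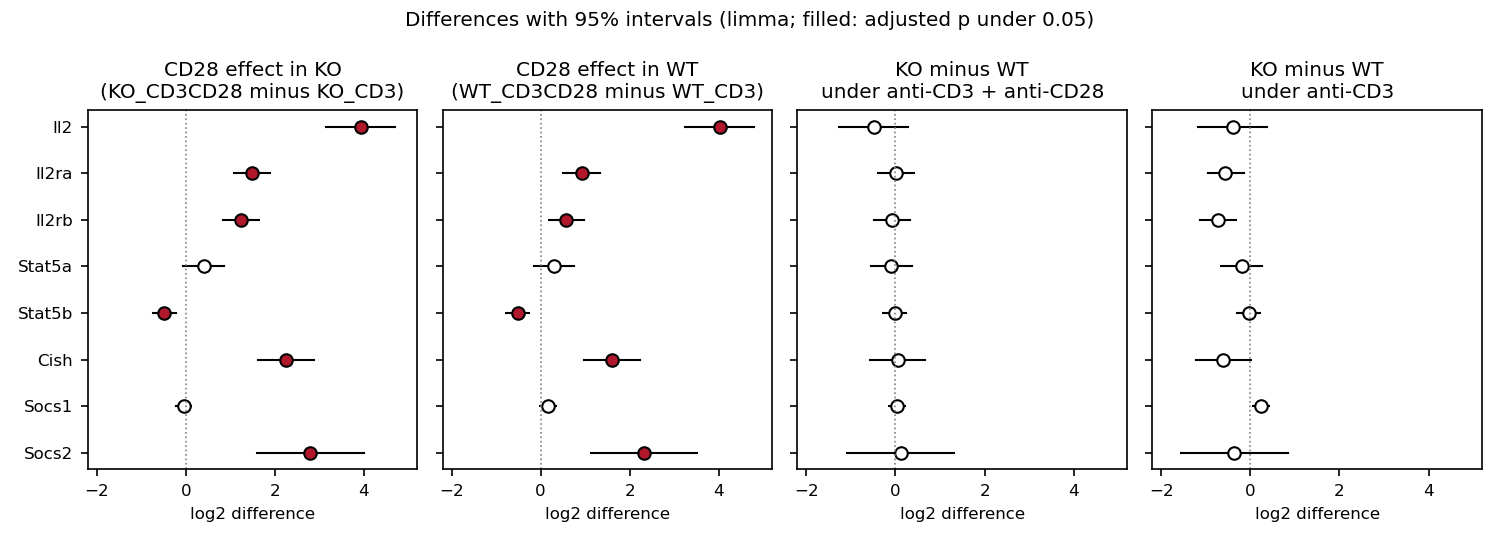
Log2 differences of the 8 genes (horizontal axis) with 95% intervals from limma, in panels for the CD28 response in knockout and in wild type and for the genotype difference under each stimulus. Filled symbols are called at an adjusted p under 0.05, and they are present only in the CD28 panels, where Il2, Il2ra, Il2rb, Cish and Socs2 lie to the right of 0 and Stat5b to the left.

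STAT5 itself is made by a pair of neighbouring genes with near-identical products. Stat5b (chr11:100780731-100859004, minus strand) and Stat5a (chr11:100859351-100885169, plus strand) lie head to head, with 346 bases between them. Each had its own probe, and how far a probe also reports its neighbour's transcript cannot be told from these files.

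Stat5a signals in KO_CD3CD28 were 10.19, 10.01, 9.13 and 9.24, against 9.41, 9.37, 9.24 and 8.95 in KO_CD3. In WT_CD3CD28 they were 10.13, 9.99, 9.52 and 9.32, against 9.54, 9.52, 9.36 and 9.32 in WT_CD3. Only replicates 1 and 2 stood clear with anti-CD28, and the stimuli overlapped in both genotypes. The CD28 difference was 0.40 in knockout (95% interval -0.05 to 0.86, limma adjusted p = 0.151) and 0.30 in wild type (adjusted p = 0.338). With the replicate number as a block the knockout difference passed (adjusted p = 0.018), as did 45.3% of all tested genes, and it passed without KO_CD3CD28 replicate 3 (0.57, adjusted p = 0.0428). With replicates 1 and 2 alone it was 0.71 in knockout (adjusted p = 0.000172) and 0.53 in wild type (adjusted p = 0.00193), where 46.8% and 36.1% of all tested genes were called, and with replicates 3 and 4 alone 0.09 and 0.08 (adjusted p = 0.714 and 0.821).

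Stat5b moved the other way. Its signals in KO_CD3CD28 were 8.72, 8.65, 8.54 and 8.41, against 9.17, 9.11, 9.24 and 8.73 in KO_CD3. In WT_CD3CD28 they were 8.66, 8.56, 8.79 and 8.36, against 9.04, 8.9, 9.2 and 9.28 in WT_CD3. Every anti-CD28 array lay under every anti-CD3 array of its genotype. Stat5b fell by 0.48 in knockout (-0.48, SE 0.12, limma adjusted p = 0.00476) and by 0.51 in wild type (adjusted p = 0.00378). When each array was centred on its median, which moved the median of all genes by 0.134 in the knockout comparison, the knockout difference was -0.35 (adjusted p = 0.0621), and with replicates 3 and 4 alone it was -0.51 (adjusted p = 0.0964). That centring also moved the share of higher genes among the calls to 75.0% in knockout and 69.3% in wild type, against 53.8% and 55.1% as deposited.

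Cish encodes an SH2 protein that binds activated cytokine receptors and is one of the first genes STAT5 turns on. It lies at chr9:107296659-107302784. The 30 bases around its start (chr9:107296656-107296685, plus strand, RefSeq) are shown because it was the only gene of the set with a window that matched the STAT motif TTCNNNGAA, here in capitals:
Cish start: gttTTCCTGGAAagTTCTTGGAAatctgtc

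The matches begin 0 and 11 bases after the annotated start. The motif, the same on both strands, was in 8.3% of all windows, and at least 2 copies were in 0.457%.

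Cish signals in KO_CD3CD28 were 9.3, 9.15, 9.29 and 9.45, against 7.34, 6.89, 6.91 and 7.04 in KO_CD3. In WT_CD3CD28 they were 9.05, 9.04, 10.05 and 8.86, against 8.31, 8.33, 7.0 and 6.96 in WT_CD3. KO_CD3 was near background on all 4 arrays, whereas WT_CD3 was clearly above it in replicates 1 and 2 and near it in the other two. Cish rose by 2.25 in knockout (SE 0.30, limma adjusted p = 1.24e-05) and by 1.60 in wild type (adjusted p = 0.000498).

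Under anti-CD3 the Cish difference between knockout and wild type was -0.61 (limma adjusted p = 0.216). In replicates 1 and 2 it was -1.21 (adjusted p = 0.00102), and in replicates 3 and 4 both genotypes were near background. In replicates 1 and 2 alone Cish was also called for the difference of the CD28 responses (1.39, adjusted p = 0.0153), where 0.487% of all tested genes were; over all 4 replicates that difference was 0.65 and was not called (limma adjusted p = 0.905). With anti-CD28 the genotypes differed by 0.05.

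Socs2 encodes an inhibitor best known for restraining growth hormone signalling through STAT5, and lies at chr10:95383903-95417321. The brighter of its 2 probes read 8.27, 8.35, 10.07 and 10.14 in KO_CD3CD28, against 6.7, 6.24, 6.31 and 6.37 in KO_CD3. It read 8.45, 7.95, 9.93 and 10.03 in WT_CD3CD28, against 7.92, 7.57, 6.08 and 5.49 in WT_CD3. The spread between replicates followed the numbers in 3 of the 4 groups, with replicates 3 and 4 higher than 1 and 2 in both anti-CD28 groups and lower in WT_CD3.

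Socs2 rose by 2.80 in knockout (SE 0.57, limma adjusted p = 0.000799) and by 2.32 in wild type (adjusted p = 0.00448). The wild-type difference was 0.45 in replicates 1 and 2 (adjusted p = 0.0856) and 4.2 in replicates 3 and 4 (adjusted p = 3.25e-06), where WT_CD3 was under the background level. In knockout the same pairs gave 1.84 and 3.77, and these values from near-background anti-CD3 arrays are lower bounds. Between genotypes under anti-CD3 the difference was -1.27 in replicates 1 and 2 (adjusted p = 0.00448) and -0.36 over all 4 (adjusted p = 0.7). All 4 KO_CD3 arrays and 3 of the 4 WT_CD3 arrays were at or under the background level, those of replicates 3 and 4 among them. The other Socs2 probe gave smaller CD28 differences of 0.67 in knockout (adjusted p = 0.00263) and 0.48 in wild type (adjusted p = 0.0279), and was near background in KO_CD3 and WT_CD3. In replicates 1 and 2 that probe read 7.19 and 7.51 in KO_CD3, against 7.51 and 7.49 in WT_CD3. Over all 4 replicates its genotype difference under anti-CD3 was -0.10, so it did not show the gap of the brighter probe.

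**Figure D4:**
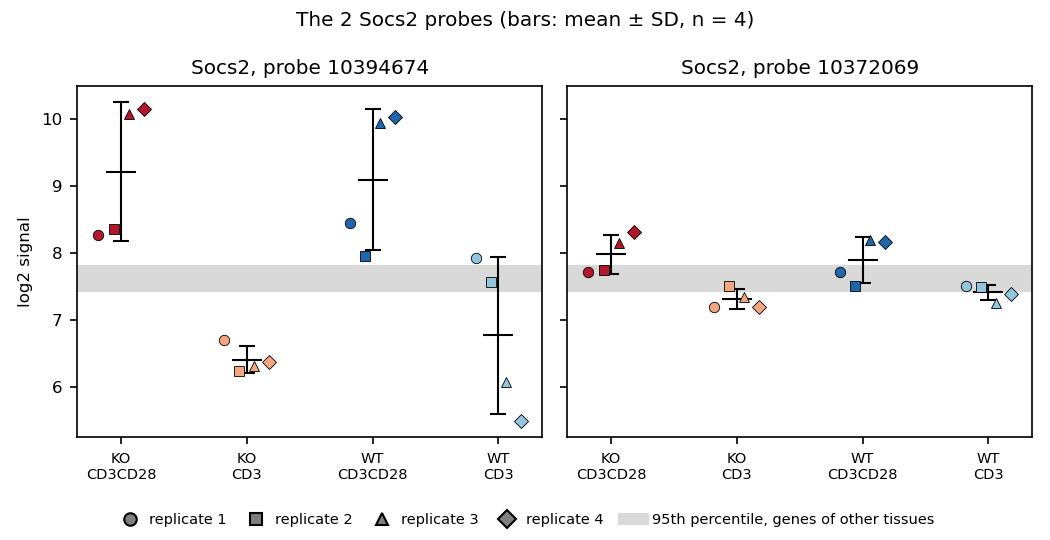
Log2 signal (vertical axis) of the 2 Socs2 probes in the 4 groups, with a point per array shaped by replicate number and bars for mean ± SD (n = 4). On both probes replicates 3 and 4 lie above replicates 1 and 2 in the 2 CD3CD28 groups, by a wider gap on the left probe, and the WT_CD3 arrays span 5.49 to 7.92 on the left probe.

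Socs1, the inhibitor that binds JAK kinases directly, was near background in all 4 groups, with means of 7.20 in KO_CD3CD28, 7.24 in KO_CD3, 7.17 in WT_CD3CD28 and 7.01 in WT_CD3, so no fold change is given. Its gene lies at chr16:10783808-10785536. It was not called in any of the 5 limma comparisons, and was called for CD28 in wild type when arrays were centred or quantile normalized (adjusted p = 0.0139 and 0.02) or weighted (0.044).

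Under anti-CD3 plus anti-CD28, 0 of the 8 genes passed the test between the genotypes, with or without the replicate block. Their differences lay between -0.49 (Il2) and 0.12 (Socs2), the groups of all 8 overlapped (2.75% of all tested genes did not), and 0.00609% of all tested genes were called, which is Bhlhe40 alone. The 95% intervals bound the size of any unseen difference unequally, from -0.4 to 0.41 for Il2ra, from -0.48 to 0.32 for Il2rb and from -1.08 to 1.31 for Socs2. Under anti-CD3 alone the median difference was -0.38 over the 8 genes and 0.033 over all tested genes, again with 0 of 8 called by limma. With replicates 1 and 2 alone 4 of the 8 were lower in knockout, where 8.45% of all tested genes were called. They were Il2ra, Il2rb, Cish and, by its brighter probe, Socs2. These calls come from the same data in which the split of replicates was seen, and are no independent support. With replicates 3 and 4 alone 0 of the 8 and 0 of all tested genes were called, not even Bhlhe40 (-1.99, limma adjusted p = 0.0969). For the difference of the CD28 responses limma called 0 of the 8 (1 at an unadjusted p under 0.05, Il2rb), and 0.0% of all tested genes, with 867 genes at an unadjusted p under 0.05.

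Genes known to answer to IL-2 and STAT5 were followed next. Of 30 listed STAT5 targets of T cells, 15 rose and 4 fell with anti-CD28 in knockout, and 13 rose and 4 fell in wild type, with medians of 0.5 and 0.35. Of all tested genes 20.4% rose and 17.6% fell in knockout, and 16% rose and 13.0% fell in wild type, so that the counts of targets that fell are near the background and those that rose lie above it. Tfrc, the transferrin receptor that brings in iron, rose by 1.92 in knockout and 1.30 in wild type (limma adjusted p = 3.06e-08 and 3.99e-06). Lta, which encodes lymphotoxin alpha, rose by 2.09 and 1.45, and Myc, the growth regulator, by 1.10 and 0.62. Lif, a cytokine of the IL-6 family, rose by 2.68 and 2.59 from a signal near background, while Ltb, lymphotoxin beta, fell in both comparisons (-1.10 and -1.32).

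Of the 9 measured genes that IL-2 or STAT5 is known to lower, 7 fell in knockout and 8 in wild type with anti-CD28, and 0 rose, with medians of -1.17 and -1.15. Of all tested genes 17.6% fell and 20.4% rose in knockout, and 13.0% fell and 16% rose in wild type. Whether IL-2 or STAT5 lowered the 9 genes here was not tested. Il7r, the interleukin-7 receptor chain of resting T cells, fell in knockout and in wild type (-2.75 and -2.34, limma adjusted p = 2.92e-08 and 3.75e-07). S1pr1, the receptor that lets T cells leave lymph nodes, fell as well (-2.28 and -2.17). Bcl6, a repressor of STAT5 targets, fell too (-1.83 and -1.88), as did Klf2, a quiescence factor (-1.30 and -1.15).

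Between genotypes under anti-CD3, 3 of the 30 STAT5 targets were lower in knockout and 0 higher, where 0.749% of all tested genes were lower. Ccnd2, a G1 cyclin, was at 10.53 in KO_CD3 and 11.2 in WT_CD3 (-0.67, limma adjusted p = 0.0236). Myc was at 10.65 and 11.25 in the same groups (-0.60, adjusted p = 0.0421), and Tfrc at 10.11 and 10.75 (-0.64, adjusted p = 0.0481). These calls were lost with single arrays left out, for Ccnd2 without KO_CD3 replicate 2 or WT_CD3 replicate 1 or 3 (adjusted p up to 0.11), for Myc without any of 11 of the 16 arrays (up to 0.141) and for Tfrc without any of 12 (up to 0.181). In the fit blocked on replicate 7 were lower, where 11.9% of all genes were called in either direction. The count was 14 with replicates 1 and 2 alone, where 8.45% of all tested genes were called in either direction. It was 0 with replicates 3 and 4 alone, where 0 of all tested genes were called, not even Bhlhe40. With anti-CD28, 0 of the 30 were called.

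**Figure D5:**
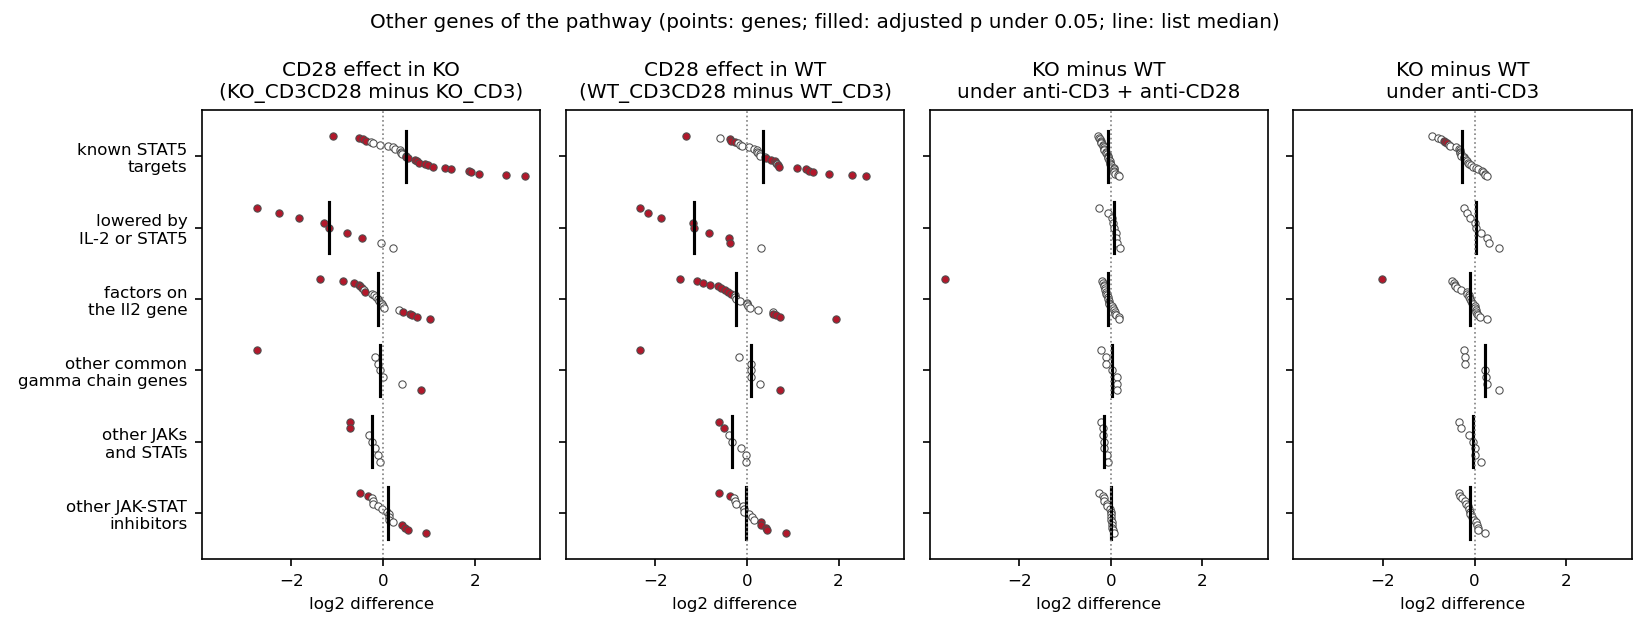
Log2 differences (horizontal axis) of the tested genes of each listed group, with a point per gene, filled where called by limma, for the CD28 response in knockout and in wild type and for the genotype difference under each stimulus, and a line at each median. The genes known to be lowered by IL-2 or STAT5 lie mainly to the left in both CD28 panels, and the STAT5 targets mainly to the right.

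The other genes of the pathway were counted against the same shares of all tested genes. Of 7 measured genes for other cytokines and receptors of the common gamma chain family, 1 rose in each genotype with anti-CD28, Il15ra (0.82 in knockout, 0.72 in wild type; in wild type not called without WT_CD3CD28 replicate 1 or 2 or WT_CD3 replicate 3 or 4, adjusted p up to 0.0824), and 1 fell, Il7r, which the list of lowered genes also holds. In the blocked fit Il4ra, the interleukin-4 receptor chain, was also called in knockout (0.41, adjusted p = 0.0309), and under anti-CD3 1 gene was called between the genotypes, Il9r, which was near background in both (adjusted p = 0.0429). Of 7 other JAK and STAT genes 0 rose and 2 fell in each genotype, Jak1, a kinase on the beta chain (-0.73 and -0.51), and Stat2, a factor of the interferon response (-0.72 and -0.61). Of 16 other inhibitors of JAK-STAT signalling 4 rose and 2 fell in knockout and 5 rose and 2 fell in wild type, and in the blocked fit 4 and 5 fell, with 1 lower in KO_CD3 than in WT_CD3 (Ptpn1, -0.31, adjusted p = 0.0496). Dusp22, a phosphatase, rose by 0.93 and 0.85, and Socs4 by 0.48 and 0.44.

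Among 23 measured factors known to act on the Il2 gene, 5 rose and 7 fell in knockout, and 4 rose and 9 fell in wild type with anti-CD28, where 20.4% of all tested genes rose and 17.6% fell in knockout and 16% rose and 13.0% fell in wild type. Rel, the NF-kB subunit that binds the CD28 response element shown above, rose by 0.63 in knockout and 0.57 in wild type (limma adjusted p = 1.7e-05 and 7.75e-05). Ikzf3, a zinc finger factor of the Ikaros family, fell in both genotypes (-1.38 and -1.46). Bhlhe40 itself rose by 1.95 in wild type. Without the block it was the only factor of this list called between the genotypes under either stimulus. In the blocked fit under anti-CD3, 3 were lower in knockout, with Nfatc1 (-0.50, adjusted p = 0.0308) and Rela (-0.44, adjusted p = 0.0273) beside it. That fit called 11.9% of all tested genes, in either direction.

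Markers of regulatory T cells, which carry CD25 without activation, were listed because the gate was set on that protein. Foxp3, their defining factor, was at 8.37 ± 0.14 in KO_CD3CD28, 7.82 ± 0.07 in KO_CD3, 8.38 ± 0.47 in WT_CD3CD28 and 8.14 ± 0.35 in WT_CD3 (SD, n = 4). It was higher with anti-CD28 in knockout (0.55, limma adjusted p = 0.0276), but not when replicate 2 or 4 of KO_CD3CD28 or replicate 1 or 3 of KO_CD3 was omitted (adjusted p up to 0.0754). The mean over 12 such markers was 8.22 to 8.39 in KO_CD3CD28, 7.88 to 8.14 in KO_CD3, 8.08 to 8.58 in WT_CD3CD28 and 8.13 to 8.41 in WT_CD3. With anti-CD28, 5 of the 11 tested rose and 1 fell in knockout, and 2 rose and 1 fell in wild type (4 and 1 in the blocked fit). Between the genotypes under anti-CD3, 0 of 11 were called without the block, 3 were lower in knockout in the blocked fit (Tnfrsf4, Tnfrsf18 and Ctla4) and 5 with replicates 1 and 2 alone. Of all tested genes 1.03%, 11.9% and 8.45% were called in these fits, in either direction. The part of regulatory T cell markers in the differences of Il2ra and Il2rb was not tested.

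For each gene the tested genes with the most similar pattern were taken by Pearson's r over the 16 arrays, a description in which both stimuli are pooled. Il2 was nearest to Dna2 (r = 0.991), Trmt10a (0.989) and Pcgf5 (0.988). Il2ra was nearest to Lta (0.955), Spata5 (0.947) and Cish (0.945), so that a receptor chain and an inhibitor of its pathway stood among each other's closest 3. Cish was nearest to Lta (0.98) and Nkg7 (0.952), and Socs2 to Rras2 (0.981). Il2rb was nearest to Csrp1 (0.945), Stat5a to Kdm2b (0.982) and Stat5b to Dcaf11 (0.992). In deviations from the group means, which hold no difference between groups, Il2 had r = 0.84 with Stat5a and -0.71 with Socs2, while Il2ra had 0.86 with Socs2. The 16 arrays share the replicate numbering described above.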

How the data were processed

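The authors deposited log2 signals, which the submitters' processing notes credit to RMA, a method that subtracts background, equalizes the arrays' distributions and combines the probes of a set. The deposited arrays nevertheless had medians from 6.64 to 6.97, so they did not share the same distribution. The file held 35556 probes of an Affymetrix mouse array on 16 arrays, and the sources used here name no genome build for it. Coordinates and promoter sequences are from RefSeq (GRCm38.p6).

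Probes above the 25th percentile of their array on 4 or more arrays were retained (17930 probes). Each gene was represented by its brightest probe with a single symbol. Differences were tested with limma 3.58.1 (R 4.3.3), with a mean per group over 16 arrays, 12 residual and 4.92 prior degrees of freedom, and Benjamini-Hochberg adjustment over 16427 genes. Summaries and figures used Python 3.11.15, pandas 2.3.3 and matplotlib 3.10.9. The test was run on simulated data with known changes. Those data had independent errors, without the shared deviations of arrays described below, so the run does not cover that feature.

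Like-numbered arrays deviated together (correlations 0.157 to 0.586, all above 0.1). Some unlike-numbered arrays did so as strongly, with 0.675 between KO_CD3CD28 replicate 3 and WT_CD3CD28 replicate 4. KO_CD3CD28 replicate 2 and WT_CD3CD28 replicate 1 had 0.619. Between the genotypes with anti-CD28, pairing by number thus cannot be told from a split of replicates 1 and 2 from 3 and 4. The numbers were taken to pair the samples, but the main fit did not use this pairing and had no block. Blocked values (9 residual degrees of freedom) are given where they change a call of a member or move a count by over 1.5 times. This pairing comes from the data, not the labels. Members, gene lists, replicate pairs and tests were chosen with earlier results of these data known. Named genes are the members, the called genes of each list with the lowest p-values (up to 4, not all printed), and each member's 3 most similar genes. Alternatives changed the scaling, filter, probe choice, variance model, array weights, the block, the Xist class, replicate pairs and leaving out each array.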

Additional observations from a re-analysis of the deposited data

Results flagged for a closer look

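Cish in WT_CD3CD28 replicate 3 stood apart from its group, at a log2 signal of 10.05 against 8.86 to 9.05 on the other 3 arrays. It was the only such array in 32 combinations of gene and group. The cutoff used is set so that chance flags about 1 in 20, a rate that was not measured here. Il2rb was also at its highest on WT_CD3CD28 replicate 3, at 10.99.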

How the results depend on the processing

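No result changed sign while called. With replicates 3 and 4 alone 2896 genes were called for CD28 in knockout (6245 with all 4) and 2650 in wild type (4770 with all 4). Between genotypes under anti-CD3 that fit called 0 genes, and it missed Bhlhe40 itself (-1.99, limma adjusted p = 0.0969). Its count of 0 therefore does not show that the genotypes were alike in these replicates. With replicates 1 and 2 alone the genotype comparison gave 1388 genes under anti-CD3 and 2 with anti-CD28, and the difference of responses 80. For the genotype under anti-CD3 (169 genes) the count was 597 with array weights, 261 with each array centred on its median, 5 with only the compared groups, 46 with the Xist class and 7 to 452 with an array left out. The replicate block gave 1954 there, and the block within genotype gave 1 for the difference of responses. Of the 8 measured genes, those lower in KO_CD3 than WT_CD3 numbered 4 with replicates 1 and 2, 1 with the block, 1 with centring and 0 to 1 with an array left out. Those lower with anti-CD28 in knockout numbered 0 with centring and 0 with replicates 3 and 4, and 1 was higher for the difference of responses with replicates 1 and 2. Besides Stat5a and Il2rb, given above, the block changed no call among the 8. Among list genes named above, Ccnd2, Myc and Tfrc were not called between genotypes under anti-CD3 with only the compared groups, nor Myc and Tfrc after quantile normalization or with the Xist class. The cause of these changes was not tested, though restricted fits hold fewer arrays. Signals near background limit what can be said of Socs1 in all groups and of Il2, Cish and Socs2 in KO_CD3 and on 3, 2 and 3 of the 4 WT_CD3 arrays.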
